A study of Mus musculus with 12 samples.

Results

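The SR proteins and the heterogeneous nuclear ribonucleoproteins (hnRNPs) were followed in the hippocampus of mice with and without NONO. Members were taken by gene symbol: every symbol of the form Srsf with a number, Tra2a and Tra2b for the SR family, and every symbol beginning with Hnrnp or Hnrp for the hnRNP family. The rule found 33 of 23329 genes, 13 SR and 20 hnRNP, which hold 65 of the 30383 RefSeq transcripts counted. Of these transcripts 62 are coding and 3 are noncoding, and 17 members have 1 transcript while 16 have several. Polyadenylated RNA of C57BL/6 hippocampus was sequenced from wild-type (WT) mice and from mice lacking NONO (knockout, KO); the labels give neither the allele nor a promoter for the loss. Both genotypes have libraries labelled CT10 and CT22, terms the labels leave unexplained, with 3 libraries in each of the 4 groups. The design text calls the animals adult. No label ties a library to an animal, so the spread behind the p-values is that between libraries and may be technical.

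SR proteins bind exons through RNA recognition motifs and recruit the splicing machinery through domains rich in arginine and serine, which kinases such as SRPK and CLK phosphorylate. Many hnRNPs bind the same transcripts and favour exon skipping, so the balance between the families helps to set which exons a neuron keeps. Both families limit their own output: members can splice a "poison" exon with an early stop codon into their own RNA, and such RNA is a target of nonsense-mediated decay. NONO is a nuclear RNA-binding protein of paraspeckles.

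The targeted gene, Nono, averaged 163 ± 7.38 CPM over the WT libraries and 0.290 ± 0.244 CPM over the KO libraries (SD, n = 6), so the genotype labels held in all 12 libraries. CPM is the count of a gene scaled to the total of its library, with TMM factors that adjust the totals. The library totals lay between 4435606 (KO CT22 replicate 2) and 10911046 counts (WT CT22 replicate 3). SR members took 0.1058% to 0.1165% of the counts of a library and hnRNP members 0.3236% to 0.3536%. By 15 clock genes, 2 of the 6 KO libraries stood nearer to the other CT label of WT than to their own: KO CT10 replicate 3 and KO CT22 replicate 1. The markers of dentate granule cells, which define hippocampal tissue, were all detected, and so were those of choroid plexus, a neighbouring tissue. The summed level of 10 choroid plexus markers ran from 333 to 2156 CPM in WT and from 226 to 5189 CPM in KO, and their part in the results was not tested beyond the alternatives described under the processing. In whole tissue, fewer cells of a type and less RNA per cell cannot be told apart.

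All 33 members were well above the limit for testing, with at least 84 counts in every library. Levels between genes were compared on the deposited TPM, a value per transcript length, summed per gene and given as mean ± SD over 12 libraries. Hnrnpk, which binds C-rich RNA, led the hnRNPs at 464 ± 32.0 TPM, ahead of Hnrnpa2b1 at 374 ± 17.0 TPM, a carrier of RNA into dendrites. The lowest library of Hnrnpk (406 TPM) lay above the highest of Hnrnpa2b1 (392 TPM). Hnrnpu, a nuclear matrix protein that binds DNA and RNA, followed at 259.6 ± 23.7 TPM, its libraries ranging over 222 to 306 TPM. Hnrnph1, which binds runs of G, at 192 ± 11.0 TPM and Hnrnpl, which binds CA-rich RNA, at 189 ± 5.94 TPM overlapped in range.

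Srsf5 stood alone at the head of the SR family with 289 ± 24.5 TPM, each library above every library of the other SR members. Srsf2, a component of nuclear speckles, came next at 133 ± 10.9 TPM (121 to 159), just clear of Srsf3, the smallest SR protein, at 116 ± 4.38 TPM (104 to 120.2). Srsf7, the SR protein with a zinc knuckle, at 85.4 ± 7.96 TPM and Srsf6 at 81.9 ± 9.47 TPM overlapped with each other and with Srsf1, Srsf4, Srsf9, Srsf11, Tra2a and Tra2b. Srsf12 was the lowest of all members at 13.5 ± 2.19 TPM. In the plot of levels the members differ far more from one another than the libraries of a member do.

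**Figure D1:**
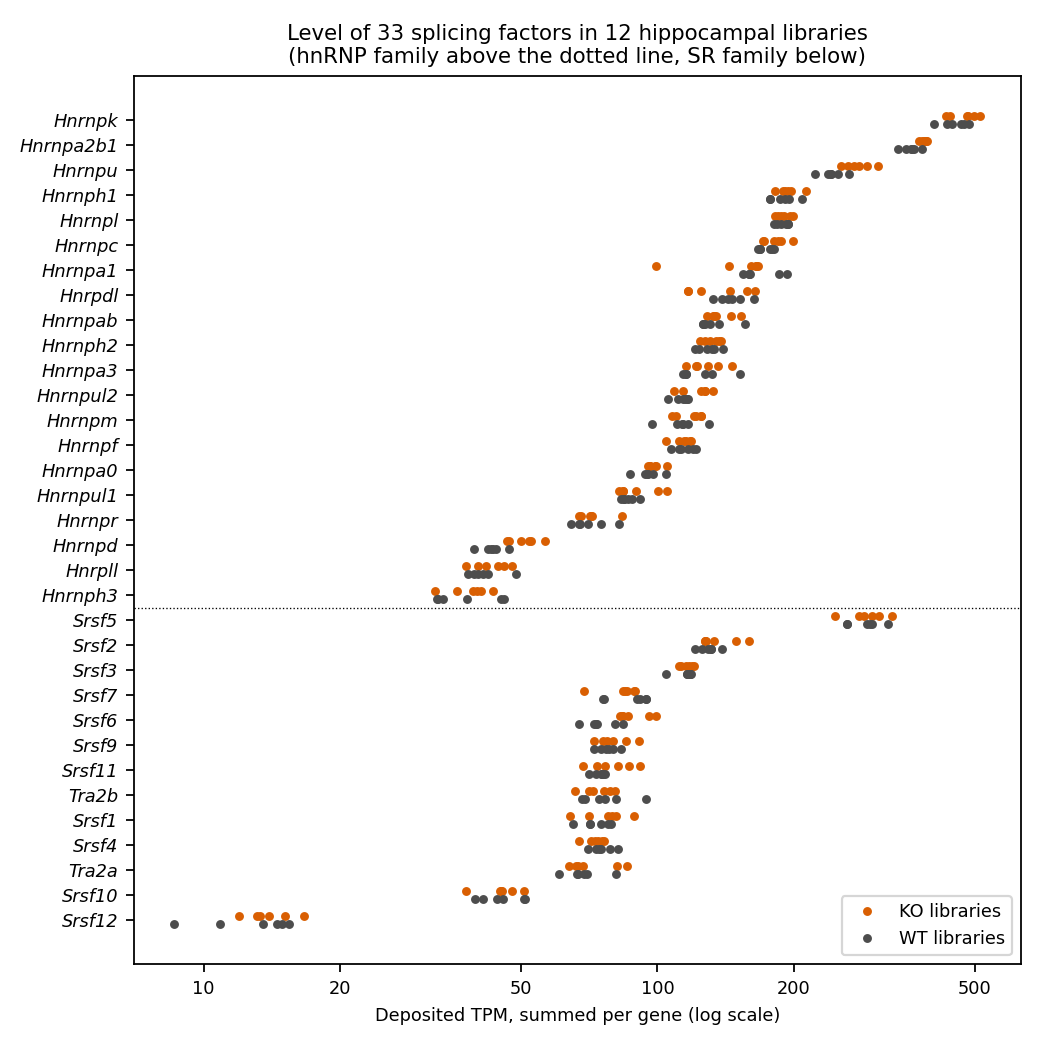
Deposited TPM summed per gene (log scale) of the 33 members in 6 WT and 6 KO libraries, 1 point per library, with hnRNP members above the dotted line and SR members below, each family ordered by mean level. Srsf12 lies near 13.5 TPM and Hnrnpk near 464 TPM, and the WT and KO points of a gene lie close together.

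The first comparison asked whether loss of NONO altered the level of these factors. No member passed the threshold of 0.05 adjusted p in the edgeR quasi-likelihood test of KO against WT over both CT labels, in which 0.0212% of all genes passed. At an unadjusted p under 0.05 there were 3 of 33 members by edgeR, against 6.35% of all genes, and 3 members by DESeq2, which called no member either (0.149% of all genes). The share of all genes with an unadjusted DESeq2 p under 0.05 was not counted, here or in the contrasts below. The DESeq2 counts of members at that cut-off therefore have no background beside them. Log2 changes of the members ran from -0.20 to 0.20, with 19 higher and 14 lower in KO, against 51.8% higher among all genes. Without the 2 KO libraries that clock genes set apart, 15 were higher and 18 lower, against 49.4% higher. With all 12 libraries the median change of the members was 0.00514, the value of Hnrnpa0, which was also the median over all genes. The 95% intervals of all 33 changes lay between -0.42 and 0.34 on the log2 scale. Each interval holds for its own gene, rests on the spread between libraries, and is not adjusted for the number of members. Among SR members 7 of 13 were higher (median 0.0160), and among hnRNP members 12 of 20 (median 0.00392).

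**Figure D2:**
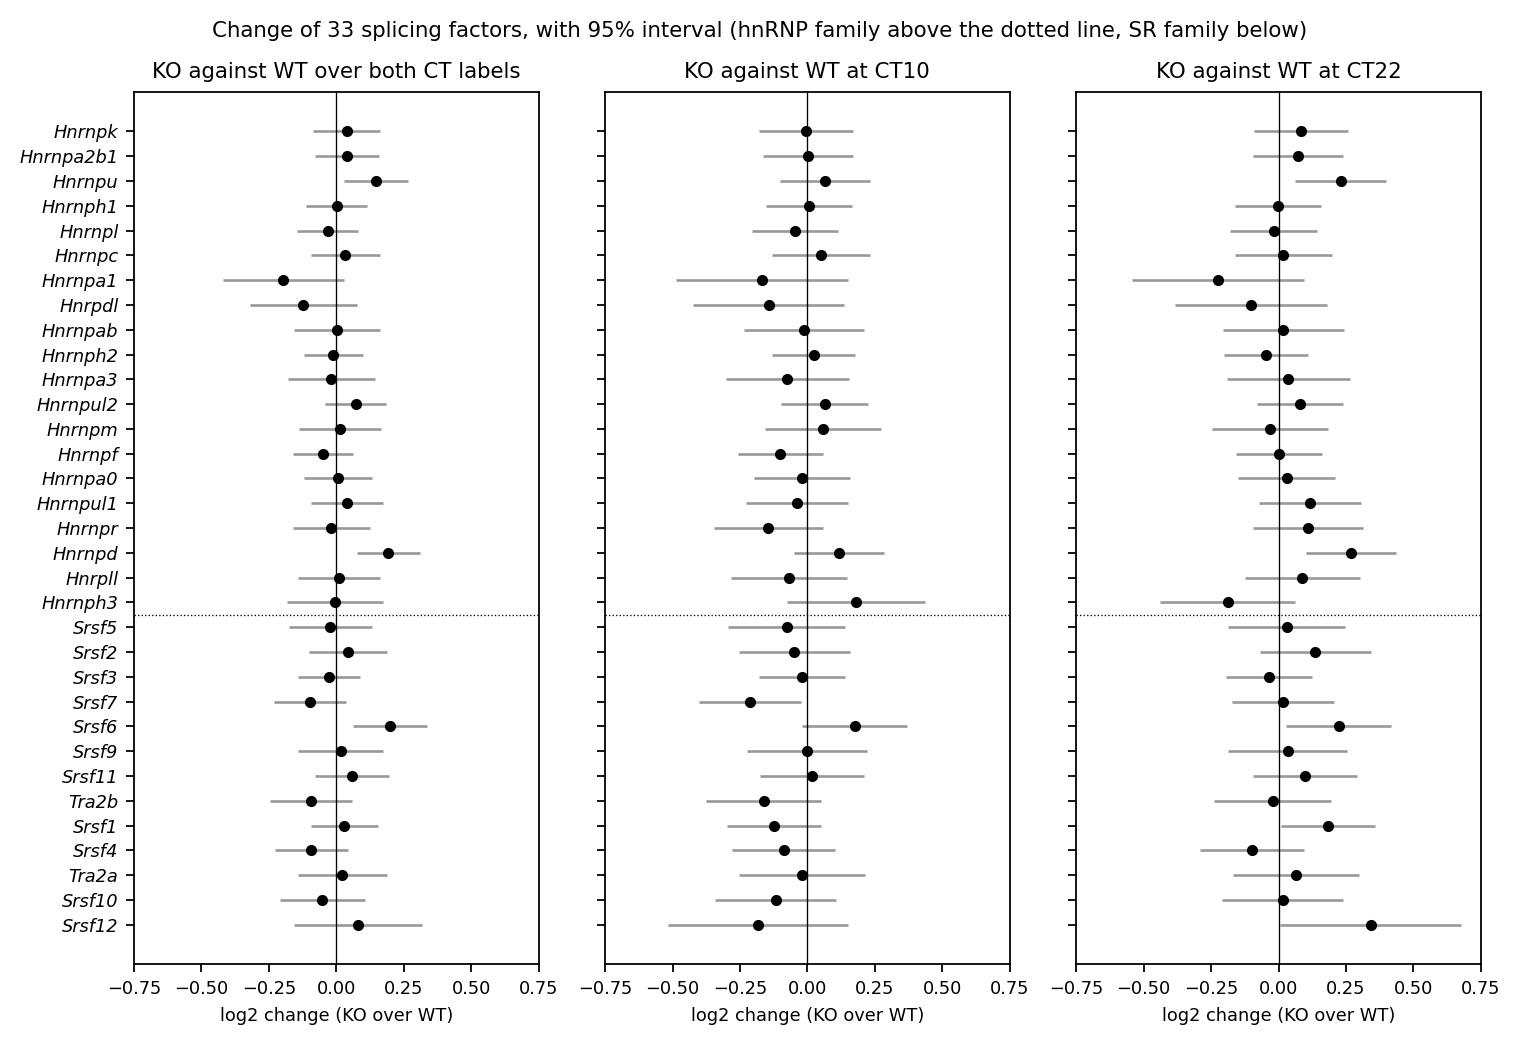
Log2 change of KO over WT for each member (point) with its 95% interval (line) from edgeR, over both CT labels, at CT10 and at CT22, with hnRNP members above the dotted line and SR members below. Over both labels the intervals of Hnrnpd, Srsf6 and Hnrnpu lie above 0 before adjustment, and those of the other 30 members include 0.

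Srsf6, an SR protein of chromosome 2 (mm10, 162931508 to 162937120, plus strand), was read at 105, 117 and 105 CPM in the CT10 libraries of WT and 132, 122 and 116 CPM in those of KO, and at 110.0, 96.8 and 108 CPM in the CT22 libraries of WT and 135, 115 and 116 CPM in those of KO. The KO libraries were the higher ones at both labels on average, and at CT22 they did not overlap the WT libraries. Its log2 change was 0.20 ± 0.0646 (SE), adjusted p = 0.597 in edgeR, with a 95% interval of 0.06 to 0.34.

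Srsf7 was read at 91.1, 88.4 and 85.8 CPM in the CT10 libraries of WT and 82.5, 67.7 and 78.3 CPM in those of KO, and at 84.5, 73.9 and 76.8 CPM in the CT22 libraries of WT and 82.4, 78.0 and 77.6 CPM in those of KO. All KO libraries were below all WT libraries at CT10, while the groups overlapped at CT22. The change over both labels was -0.10 ± 0.0626 (SE), adjusted p = 0.818 in edgeR. Srsf4, a long SR protein, ranged over 63.1 to 73.0 CPM in WT (median 67.2) and 58.0 to 68.3 CPM in KO (median 63.3), and the genotypes overlapped. Tra2b, a binder of GA-rich exonic enhancers, spanned 56.2 to 80.0 CPM across WT and 53.8 to 65.2 CPM across KO, also with overlap. In edgeR the log2 changes were -0.09 ± 0.0635 (SE), adjusted p = 0.827 for Srsf4 and -0.09 ± 0.0715 (SE), adjusted p = 0.843 for Tra2b. Leaving out 1 library took Srsf7 to -0.061 (without KO CT10 replicate 2), Srsf4 to -0.060 (without WT CT10 replicate 3) and Tra2b to -0.044 (without WT CT10 replicate 1). Srsf4 was at -0.026 when the top choroid plexus library of each group was left out.

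Srsf11 and Srsf12 had the largest p-values of the 12 members named for this comparison. Srsf11 was read at 92.2 ± 3.48 CPM over WT and 95.9 ± 8.45 CPM over KO libraries (SD, n = 6), a log2 change of 0.06 ± 0.0643 (SE), adjusted p = 0.904 in edgeR. Srsf12, the rarest member, was read at 15.2 ± 2.82 and 16.0 ± 1.79 CPM (SD, n = 6 each), with an edgeR log2 change of 0.08 ± 0.111 (SE), adjusted p = 0.927. Both values moved with single libraries. Srsf11 was at 0.016 without KO CT10 replicate 1 and at 0.015 without KO CT22 replicate 1. Srsf12 was at 0.0047 without replicate 3 of WT at CT22 and at 0.17 without replicate 1 of that group, and leaving out KO CT10 replicate 2 or KO CT22 replicate 2 gave 0.050 or 0.046. The abundant Srsf5, Srsf2 and Srsf3 had log2 changes of -0.02, 0.04 and -0.03, and their 95% intervals of -0.18 to 0.13, -0.10 to 0.19 and -0.14 to 0.09 all included 0.

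Hnrnpd, also known as AUF1, binds AU-rich elements and marks messenger RNAs for decay (chromosome 5, mm10, 99955936 to 99978938, minus strand). It was read at 131, 117 and 118 CPM in the CT10 libraries of WT and 138, 132 and 126 CPM in those of KO, and at 116, 118 and 114 CPM in the CT22 libraries of WT and 148, 132 and 138 CPM in those of KO. Every KO library was above every WT library at CT22, whereas WT CT10 replicate 1 lay inside the KO range. The log2 change over both labels was 0.19 ± 0.0553 (SE), adjusted p = 0.577 in edgeR, with a 95% interval of 0.08 to 0.31. This was the smallest unadjusted p of the 33 members, 0.00329 in edgeR.

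Hnrnpu (chromosome 1, mm10, 178328300 to 178337784, minus strand) was read at 393, 349 and 367 CPM in the CT10 libraries of WT and 396, 386 and 378 CPM in those of KO, and at 341, 332 and 368 CPM in the CT22 libraries of WT and 431, 384 and 405 CPM in those of KO. Again the genotypes were apart at CT22 and overlapped at CT10. Its edgeR log2 change was 0.15 ± 0.0555 (SE), adjusted p = 0.703, with a 95% interval of 0.03 to 0.27. Its relative Hnrnpul2 ranged over 239.9 to 279 CPM across WT and 255 to 294 CPM across KO, and its log2 change was 0.07 ± 0.0530 (SE), adjusted p = 0.838 in edgeR.

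Hnrnpa1, a shuttling repressor of exon inclusion, was read at 138, 128 and 109 CPM in the CT10 libraries of WT and 114, 121 and 100.2 CPM in those of KO, and at 109, 116 and 119 CPM in the CT22 libraries of WT and 112, 69.5 and 109.9 CPM in those of KO. KO CT22 replicate 2, the shallowest library, stood far below the others, and the remaining 5 KO libraries overlapped the WT range. The log2 change of -0.20 ± 0.105 (SE), adjusted p = 0.801 in edgeR became -0.11 (adjusted p = 0.832) without that library. Hnrnpf, which binds runs of G, spanned 96.3 to 109 CPM across WT and 91.1 to 103 CPM across KO, and its log2 change was -0.05 ± 0.0524 (SE), adjusted p = 0.894 in edgeR (-0.023 without KO CT10 replicate 3). For the abundant Hnrnpk, Hnrnpa2b1, Hnrnph1 and Hnrnpl the 95% intervals were -0.09 to 0.16, -0.08 to 0.16, -0.11 to 0.11 and -0.15 to 0.08, each including 0.

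Hnrpdl, a relative of Hnrnpd, was read at 179.7, 163 and 160.1 CPM in the CT10 libraries of WT and 167, 164 and 125 CPM in those of KO, and at 139, 159.6 and 159.6 CPM in the CT22 libraries of WT and 172, 132 and 122 CPM in those of KO. Within KO the libraries fell apart across the CT labels: KO CT10 replicate 3 was low like KO CT22 replicates 2 and 3, and KO CT22 replicate 1 was high like KO CT10 replicates 1 and 2. These are the 2 libraries that stood out of place by clock genes. Dbp, a clock output gene, was read at 93.7, 106 and 33.6 CPM in KO at CT10 and at 90.9, 32.3 and 32.9 CPM in KO at CT22, in replicate order. Both genes thus split the 6 KO libraries alike. Dbp is itself 1 of the 15 clock genes that set those 2 libraries apart, so its split is not separate evidence. The edgeR log2 change of Hnrpdl at CT22 against CT10 in KO was -0.09 ± 0.132 (SE), adjusted p = 0.983 with all libraries and -0.38 ± 0.108 (SE), adjusted p = 0.606, without those 2. This gene was singled out after its values were seen, and whether the pattern has to do with the clock was not tested.

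**Figure D3:**
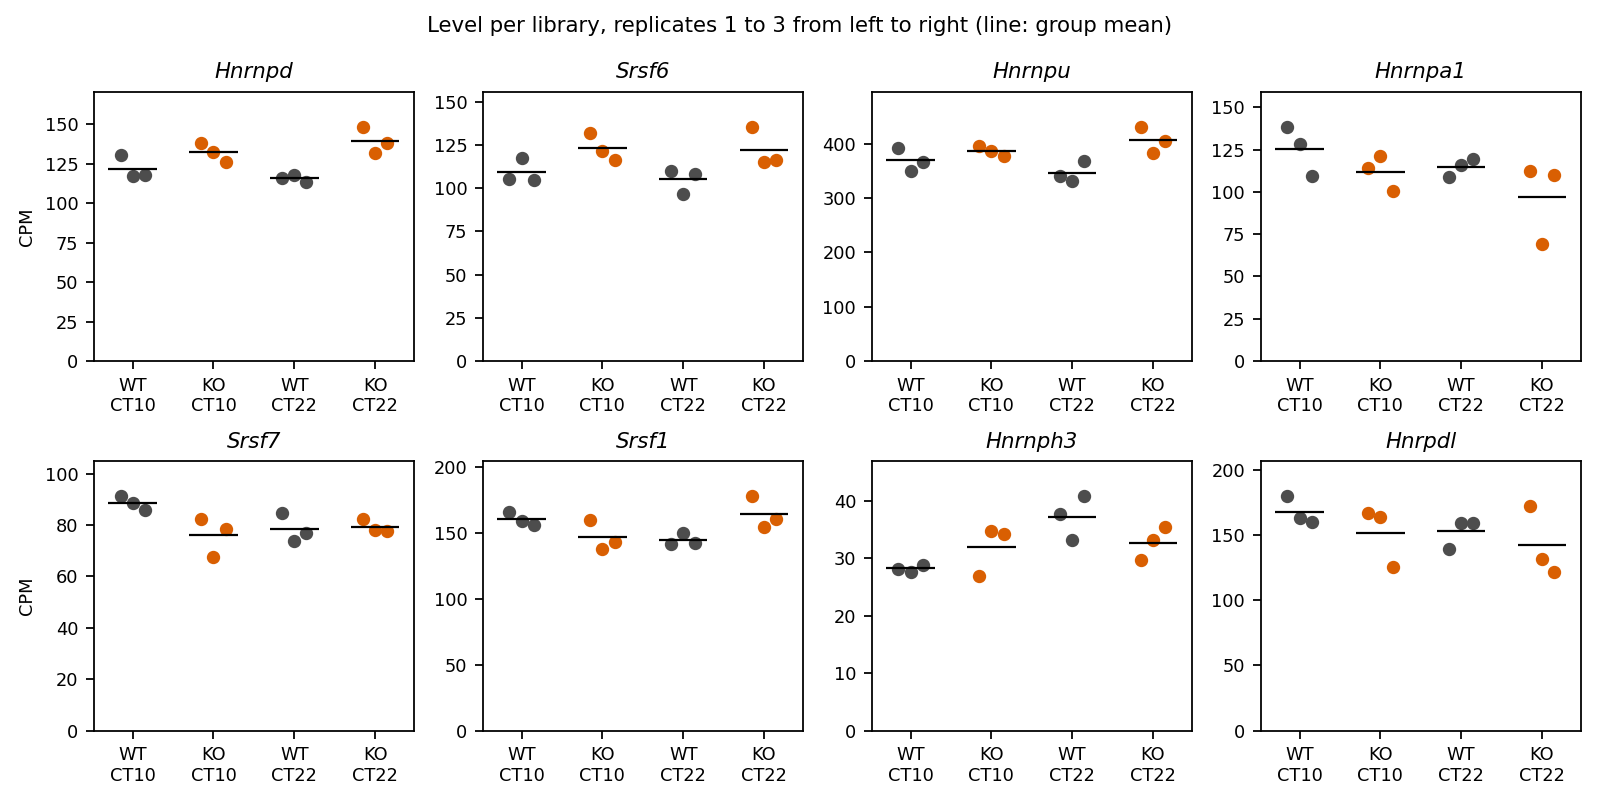
CPM of 8 members in each library (points, replicates 1 to 3 from left to right; WT grey, KO orange) with the group mean (line). Hnrnpd, Srsf6, Hnrnpu and Srsf1 have their KO points above the WT points at CT22, Srsf7 has its KO points below at CT10, and the low Hnrpdl points lie in KO CT10 replicate 3 and KO CT22 replicates 2 and 3.

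Within the CT labels, no member passed in the edgeR test of KO against WT at CT10, where 0.00708% of all genes passed, nor at CT22, where 0.0142% passed. At CT10 the unadjusted edgeR p was under 0.05 for 1 of 33 members (Srsf7), against 3.09% of all genes, and for 1 member by DESeq2. At CT22 this held for 5 of 33 (Hnrnpd, Hnrnpu, Srsf6, Srsf1 and Srsf12), all higher in KO, against 10.9% of all genes, and for 4 members by DESeq2. Without the 2 KO libraries that clock genes set apart it held for 3 members at CT22, 1 higher (Hnrnpd, 0.21) and 2 lower (Hnrpdl, -0.28, and Hnrnpa1, -0.34), against 8.5% of all genes. DESeq2 called no member at CT10 (0.0164% of all genes) or at CT22 (0.371%). At CT10 11 members were higher in KO (median -0.02), against 51.5% of all genes, and at CT22 23 were (median 0.03), against 50.6%.

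Srsf7 had a log2 change of -0.21 ± 0.0885 (SE), adjusted p = 1.000 at CT10 in edgeR. KO CT10 replicate 2 was its lowest library, and without it the value was -0.14. Next by p at CT10 came Srsf6 at 0.18 ± 0.0914 (SE), Tra2b at -0.16 ± 0.101 (SE), Hnrnpr, a relative of the neuronal RNA carrier Syncrip, at -0.14 ± 0.0953 (SE), and Srsf1 at -0.12 ± 0.0818 (SE). None of these passed in edgeR (adjusted p = 1.000 for each of the 5). Without WT CT10 replicate 1, Tra2b was at -0.065 and Hnrnpr at -0.076, and without KO CT10 replicate 2 Srsf1 was at -0.082. Without the top choroid plexus library of each group, Srsf6 was at 0.093 and Srsf1 at -0.21.

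At CT22 the edgeR log2 change was 0.27 ± 0.0781 (SE), adjusted p = 0.384 for Hnrnpd and 0.23 ± 0.0785 (SE), adjusted p = 0.398 for Hnrnpu. Srsf6 stood at 0.22 ± 0.0913 (SE), adjusted p = 0.423 in edgeR. Srsf1, the first SR protein described and a general splicing factor, was read at 166, 159 and 156 CPM in the CT10 libraries of WT and 159.8, 138 and 143 CPM in those of KO, and at 142, 150.0 and 142 CPM in the CT22 libraries of WT and 178, 154 and 160.4 CPM in those of KO. Its KO libraries were all above the WT libraries at CT22, and 2 of 3 were below all WT libraries at CT10. The edgeR log2 change at CT22 was 0.18 ± 0.0817 (SE), adjusted p = 0.435, and that of Srsf12 was 0.34 ± 0.157 (SE), adjusted p = 0.452. Srsf12 was at 0.53 without WT CT22 replicate 1 and at 0.19 without WT CT22 replicate 3.

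KO CT22 replicate 1 was the highest KO library at CT22 for Hnrnpd, Hnrnpu, Srsf6 and Srsf1. The same library had the highest sum of the 10 dentate granule markers, 946 CPM against 433 to 662 CPM in the other 11 libraries. It also had the lowest sum of the 10 oligodendrocyte markers, 3636 CPM against 4255 to 7689 CPM in the others. At CT22, 9 of 9 tested dentate granule markers and 10 of 10 choroid plexus markers were higher in KO, and 9 of 10 microglial and 9 of 10 oligodendrocyte markers were lower; none passed in edgeR. Of 10 meningeal markers 8 were higher in KO at CT22, none passing in edgeR, and their sum ran from 492 to 907 CPM in WT and from 828 to 1369 CPM in KO at that label. Without KO CT22 replicate 1 the log2 changes were 0.21 for Hnrnpd, 0.18 for Hnrnpu, 0.13 for Srsf6 and 0.11 for Srsf1. Of the 5 members with an unadjusted edgeR p under 0.05 at CT22, 1 (Hnrnpd) was then still under it, and Hnrpdl and Hnrnpa1, both lower in KO, came under it, against 8.9% of all genes. The part of these markers in the values was not tested.

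Counted by library, no member had all KO libraries on the same side of all WT libraries at both CT labels, as 114 of the 14131 tested genes did (0.361% higher and 0.446% lower in KO). At CT22 alone 5 members had every KO library higher (Hnrnpd, Hnrnpu, Hnrnpul2, Srsf1 and Srsf6), where 7.25% of all genes did, and none had every KO library lower (6.49%). At CT10 alone Hnrnpf and Srsf7 had every KO library lower, where 5.43% of all genes did, and none had every KO library higher (4.9%).

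Whether the effect of the knockout differed between the CT labels was tested directly. No member passed in edgeR, nor did any gene (0%), and DESeq2 called none. The unadjusted edgeR p was under 0.05 for 3 of 33 members, against 6.09% of all genes, and for 2 by DESeq2. The difference (effect at CT22 minus effect at CT10) was 0.31 ± 0.116 (SE), adjusted p = 0.737 for Srsf1, 0.52 ± 0.222 (SE) for Srsf12 and -0.37 ± 0.168 (SE) for Hnrnph3 in edgeR. Hnrnpr followed at 0.25 ± 0.135 (SE) and Srsf7 at 0.23 ± 0.125 (SE), and the adjusted p in edgeR was 0.737 for all 5. The difference was above 0 for 25 of 33 members, against 49.9% of all genes, with a median of 0.08. Without the 2 KO libraries that clock genes set apart it was above 0 for 18 of 33 members, against 49.7% of all genes, with a median of 0.04, and no member had an unadjusted edgeR p under 0.05, against 4.39%. Hnrnpr was then at 0.14, and it was at 0.16 without KO CT22 replicate 1 alone. Srsf12 was at 0.33 without the top choroid plexus library of each group.

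The CT labels were then compared within each genotype. In WT no member and no gene passed in edgeR (0% of all genes). The unadjusted edgeR p was under 0.05 for 2 of 33 members, against 6.76% of all genes, and for 2 by DESeq2, which called no member (0.0219% of all genes). Relative to CT10, 7 of 33 members were higher and 26 lower at CT22 (median -0.07), against 50% higher among all genes. Hnrnph3, a relative of Hnrnph1, was read at 28.1, 27.7 and 28.9 CPM in the CT10 libraries of WT and 27.0, 34.8 and 34.3 CPM in those of KO, and at 37.8, 33.1 and 40.8 CPM in the CT22 libraries of WT and 29.8, 33.2 and 35.4 CPM in those of KO. In WT all CT22 libraries were above all CT10 libraries, a log2 change of 0.40 ± 0.118 (SE), adjusted p = 0.722 in edgeR, while in KO the labels overlapped. Tra2b was at 80.0, 63.7 and 68.3 CPM at CT10 and 56.2, 63.8 and 60.6 CPM at CT22 in WT, a change of -0.23 ± 0.10 (SE). Srsf12 (-0.33 ± 0.155 (SE)), Srsf7 (-0.17 ± 0.0878 (SE)) and Hnrnpr (-0.17 ± 0.0946 (SE)) came next, and none passed in edgeR. Without WT CT10 replicate 1, Tra2b was at -0.13 and Hnrnpr at -0.10. Leaving out WT CT22 replicate 1 gave -0.11 for Hnrnpr and -0.52 for Srsf12, which was at -0.18 without WT CT22 replicate 3 and at -0.14 without the top choroid plexus library of each group.

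In KO no member and no gene passed between the CT labels in edgeR (0%), and no member had an unadjusted p under 0.05 by edgeR or DESeq2, against 3.16% of all genes by edgeR. Here 20 of 33 members were higher at CT22 (median 0.03), against 50.1% of all genes. The smallest p-values belonged to Srsf1 at 0.16 ± 0.0820 (SE), Tra2a, the second Tra2 protein, at 0.17 ± 0.110 (SE), Hnrnpul2 at 0.11 ± 0.0750 (SE), Hnrnpul1 at 0.12 ± 0.0891 (SE) and Hnrnph2 at -0.09 ± 0.0734 (SE), all with adjusted p = 0.977 in edgeR. The 2 KO libraries that the clock genes placed with the other label enter this comparison, 1 in each group. Without them 15 members were higher and 18 lower at CT22 (median -0.006), against 50% higher among all genes. In that fit 3 members had an unadjusted edgeR p under 0.05, against 7.37% of all genes: Hnrpdl, Hnrnpa1 (-0.37) and Tra2a (0.29). Srsf1 was then at 0.083, Hnrnpul2 at 0.16 and Hnrnpul1 at 0.053, and no member passed. With all other libraries kept, leaving out KO CT22 replicate 3 gave 0.091 for Tra2a and 0.21 for Hnrnpul1, and leaving out KO CT22 replicate 2 gave 0.055 for Hnrnpul1.

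Srsf3, Srsf7 and Srsf9 are the members counted in both a coding and a noncoding form. In each, the noncoding RefSeq transcript carries an extra internal exon. The start of each exon, 5′ to 3′ on the gene's strand, is shown up to the first stop codon (capitals) met in the reading frame that a coding transcript brings into it, from GENCODE M21 (mm10), because that stop is what sets the form apart.
Srsf3 exon start: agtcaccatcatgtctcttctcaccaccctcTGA
Srsf7 exon start: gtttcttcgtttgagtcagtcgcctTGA
Srsf9 exon start: aaaactatTAG
The Srsf3 exon spans 456 bases (chr17:29039454-29039909, plus strand), and its stop lies at bases 32 to 34. The Srsf7 exon spans 460 bases (chr17:80204622-80205081, minus strand), with the stop at bases 26 to 28. The Srsf9 exon is the short one, 90 bases (chr5:115331450-115331539, plus strand), with the stop at bases 9 to 11. GENCODE holds each exon in a transcript of its class of nonsense-mediated decay targets.

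The noncoding form was a sizeable share of each of the 3 genes. In Srsf3 it held 16.7, 19.8 and 19.8% of the gene's TPM in WT and 19.2, 17.4 and 15.3% in KO at CT10, and 16.2, 18.6 and 16.5% in WT and 19.4, 16.3 and 14.9% in KO at CT22. In Srsf7 the shares were 30.1, 25.5 and 24.3% and 28.3, 22.5 and 21.6% at CT10, and 30.5, 27.5 and 29.2% and 32.8, 30.1 and 24.1% at CT22. In Srsf9 they were 44.6, 45.9 and 51.7% and 56.2, 52.7 and 49.0% at CT10, and 42.3, 48.8 and 54.8% and 54.3, 57.2 and 45.5% at CT22. WT and KO libraries overlapped in all 3 genes, and the 3 genes did not overlap one another in order: every Srsf9 share was above every Srsf7 share, and every Srsf7 share above every Srsf3 share. The authors' estimation divides reads between the forms, and the counts of a form carry its error.

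Over both CT labels the share was 18.0 ± 1.69% in WT and 17.1 ± 1.90% in KO for Srsf3, 27.9 ± 2.51% and 26.6 ± 4.51% for Srsf7, and 48.0 ± 4.66% and 52.5 ± 4.49% for Srsf9 (SD, n = 6 each). No member passed in limma on the log2 ratio of noncoding to coding counts, nor did any of the 199 genes with both forms (0%), and none of the 3 members had an unadjusted p under 0.05 in limma, against 7.04% of the 199 genes. The log2 changes of the ratio in KO were -0.09 ± 0.179 (SE) for Srsf3, -0.11 ± 0.198 (SE) for Srsf7 and 0.26 ± 0.216 (SE) for Srsf9, each with adjusted p = 0.931 in limma. Their 95% intervals of -0.49 to 0.31, -0.55 to 0.34 and -0.23 to 0.75 leave room for changes in either direction. With 1 library left out the change ran from -0.15 (without KO CT22 replicate 1) to -0.038 (without KO CT10 replicate 3) for Srsf3. For Srsf7 it ran from -0.18 (without KO CT10 replicate 1) to -0.017 (without KO CT22 replicate 3). For Srsf9 it was 0.17 without WT CT22 replicate 1, and 0.46 without the top choroid plexus library of each group. At CT10, at CT22 and between the CT labels no ratio passed either (0% of the 199 genes each time), and no member had an unadjusted limma p under 0.05 (4.02%, 4.52% and 3.02% of the 199 genes had).

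**Figure D4:**
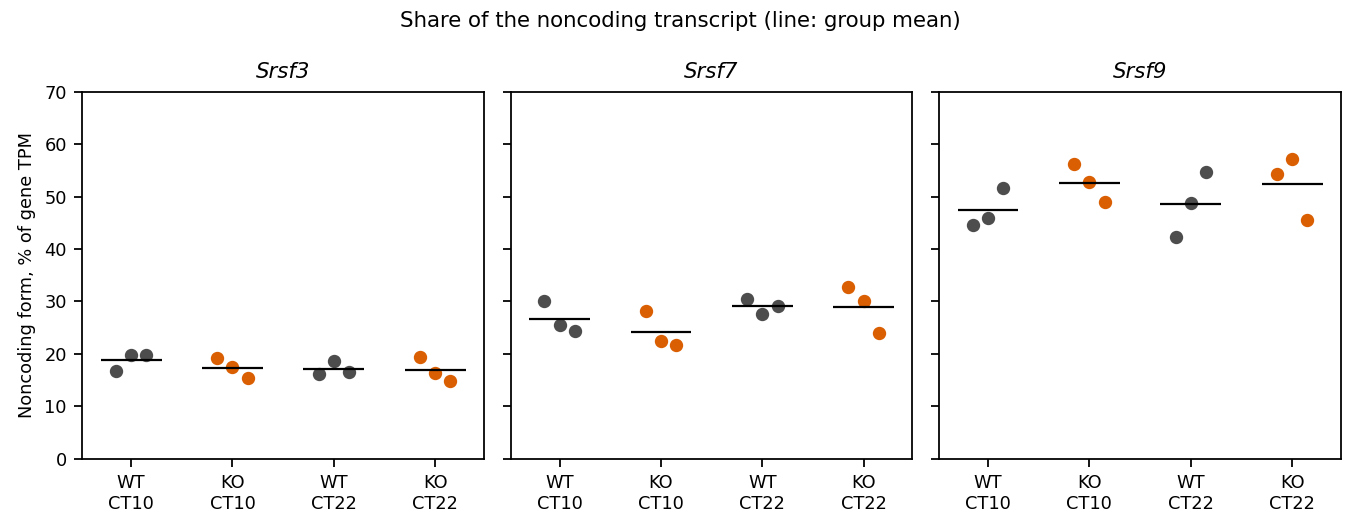
Share of the noncoding transcript in the gene's TPM (percent) for Srsf3, Srsf7 and Srsf9, 1 point per library (WT grey, KO orange) with the group mean (line). Srsf3 lies between 14.9% and 19.8%, Srsf7 between 21.6% and 32.8% and Srsf9 between 42.3% and 57.2%, and WT and KO points overlap in each.

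Transcripts were next tested singly. Of the 65 member transcripts 61 passed the filter on low counts; the 4 left out were minor forms of Hnrnpc, Hnrnpf and Hnrnpul1. In the edgeR test over both CT labels no member transcript passed (0.0222% of all transcripts did), and 3 of 61 had an unadjusted p under 0.05, against 5.64% of all transcripts. At CT10 none passed (0.0111%) and 3 of 61 had an unadjusted p under 0.05, against 3.24%, and at CT22 none passed (0.00555%) and again 3 did, against 8.25%. Between the CT labels none passed (0%), and 4 of 61 had an unadjusted p under 0.05, against 3.78% of all transcripts. With DESeq2 1 member transcript was called over both labels, Hnrnpd NM_007516, where 0.583% of all transcripts were called. At CT22 DESeq2 called 1, the single transcript of Hnrnpu, NM_016805, where 1.42% were called, and at CT10 and between the labels it called none (0.270% and 0.135%).

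Hnrnpd makes 4 coding forms by including or skipping a 57-base and a 147-base exon, both of which keep the reading frame. They are shown because these exons alone tell the forms apart (mm10, minus strand, 5′ to 3′, no part marked).
57-base exon: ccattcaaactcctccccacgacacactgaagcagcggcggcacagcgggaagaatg
147-base exon: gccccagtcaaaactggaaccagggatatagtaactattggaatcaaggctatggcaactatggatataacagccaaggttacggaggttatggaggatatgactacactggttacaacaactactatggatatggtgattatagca
The 57-base exon lies at chr5:99976534-99976590 and the 147-base exon at chr5:99963731-99963877. The 57-base exon was included in 86.6 ± 2.72% of the gene's TPM in WT and 84.4 ± 3.26% in KO, and the 147-base exon in 82.1 ± 3.70% and 79.9 ± 1.95% (SD, n = 6 each). The form with both exons was the main form, at 71.9 ± 3.55% in WT and 67.1 ± 2.93% in KO.

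NM_007516, which has the 57-base exon and lacks the 147-base exon, was read at 5.90, 6.38 and 5.52 TPM in WT and 9.84, 7.11 and 8.57 TPM in KO at CT10. At CT22 the values were 7.36, 5.76 and 6.97 TPM in WT and 10.3, 9.25 and 7.75 TPM in KO. Within each CT label every KO library was above every WT library, while across labels KO CT10 replicate 2 lay below WT CT22 replicate 1. Hnrnpa2b1 NM_182650 was likewise apart within each label. It reached 221 TPM in WT and began at 225 TPM in KO at CT10, and 216 and 218 TPM at CT22. The share of all transcripts apart in this way was not counted. The log2 change of NM_007516 over both CT labels was 0.44 ± 0.101 (SE) in edgeR with adjusted p = 0.586, and 0.44 ± 0.111 (SE) in DESeq2 with adjusted p = 0.0206. It was 14.7 ± 2.11% of the gene's TPM in WT and 17.3 ± 1.83% in KO (SD, n = 6 each). The bounds deposited with these TPM values, whose level the sources used here do not state, reached down to 0 in WT CT10 replicate 1 and to 0.137 TPM in KO CT22 replicate 3. In each library these bounds were further apart than the means of the genotypes, 6.32 ± 0.726 TPM in WT and 8.81 ± 1.24 TPM in KO (SD, n = 6 each). This transcript was singled out for its DESeq2 call.

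**Figure D5:**
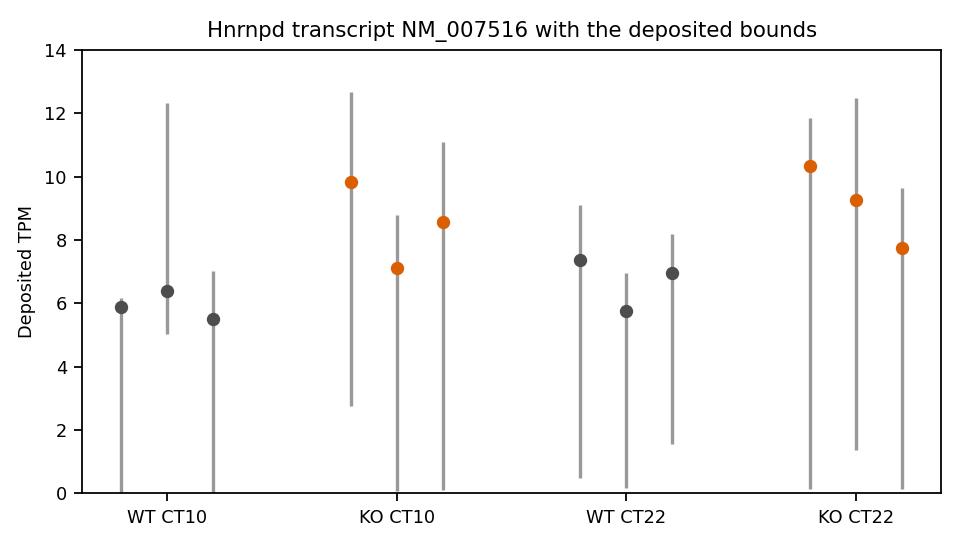
Deposited TPM of the Hnrnpd transcript NM_007516 in each library (points; WT grey, KO orange) with the lower and upper bounds deposited beside it (lines). Points run from 5.52 to 7.36 TPM in WT and from 7.11 to 10.3 TPM in KO, and the bounds of most libraries reach close to 0.

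The forms of some other members with several coding transcripts are described here without a test. Inclusion of the 159-base exon of Hnrnpa1 was 29.8 ± 5.91% in WT and 34.0 ± 8.95% in KO. At CT10 it was 27.4 ± 8.17% and 27.55 ± 5.44%, and at CT22 it was 32.2 ± 1.84% and 40.5 ± 6.71% (SD, n = 3 each). The CT22 libraries overlapped, at 31.1 to 34.3% in WT and 32.8 to 45.3% in KO. The 120-base exon of Hnrnpa2b1 was in 41.9 ± 3.0% and 40.5 ± 2.31%, and the 141-base exon of Hnrnpab in 31.4 ± 4.05% and 30.7 ± 4.25%. Each of these exons is a multiple of 3 bases long. The 2 Hnrnpa2b1 forms differ in their last exon too, of 2820 bases in the form with the 120-base exon and 502 bases in the other. The Hnrnpa2b1 value is thus the TPM share of a whole form, and reads over the last exon enter it. Srsf1 was divided 45.2 ± 3.35% to 54.8 ± 3.35% between its forms in WT and 45.2 ± 5.35% to 54.8 ± 5.35% in KO. Of Srsf10, a splicing repressor when dephosphorylated, the form NM_001080387 held 70.7 ± 3.13% in WT and 73.4 ± 2.90% in KO (SD, n = 6 each unless stated). At CT22 its libraries did not overlap, at 68.9, 71.5 and 70.6% in WT and 72.2, 76.2 and 74.4% in KO, while at CT10 they did. The Hnrnpc form NM_001170982 held 23.9, 22.1 and 25.0% in WT and 20.7, 15.2 and 20.5% in KO at CT10, without overlap, and overlapped at CT22 (20.2, 23.1 and 19.6% and 17.8, 24.2 and 18.7%). Both forms were singled out after their values were seen. Other forms were apart at CT10 too, such as Hnrnpd NM_001077265 (71.6 to 76.5% in WT, 62.8 to 70.8% in KO). Srsf5 NM_001079694 was another (50.4 to 51.5% in WT, 51.9 to 54.6% in KO). The share of all forms that were apart at 1 label was not counted.

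Genes that act on or beside these factors were counted from lists. Of 12 SR kinases and phosphatases 5 were higher and 7 lower in KO over both CT labels (median -0.04), and none passed in edgeR. Clk4, a kinase of SR proteins, was read at 37.2 ± 1.17 CPM over WT and 33.1 ± 3.77 CPM over KO libraries, and Srpk1, another, at 41.1 ± 2.68 and 45.8 ± 4.13 CPM (SD, n = 6 each). Both were picked for a small p within the list. There 1 of the 12 genes had an unadjusted edgeR p under 0.05, against 6.35% of all genes. Of 13 tested genes of nonsense-mediated decay 9 were higher and 4 lower (median 0.02), and of 40 genes of the core spliceosome and its SR-related partners 21 were higher and 19 lower (median 0.02). Of 22 relatives of the hnRNPs that carry other names 14 were higher and 8 lower (median 0.009). Of 22 neuronal splicing regulators, such as the Rbfox, Nova and Celf families, 18 were higher and 4 lower (median 0.06), with Srrm4, a neuronal activator of microexons, at 44.4 ± 8.74 CPM over WT and 52.9 ± 6.43 CPM over KO libraries (SD, n = 6). Srrm4 was picked by the same rule, and 0 of the 22 regulators had an unadjusted edgeR p under 0.05. Of 3 importins of SR proteins 1 was higher. No gene of these lists passed in edgeR, where 0.0212% of all genes did. Beside these lists, over both CT labels 10 of 10 microglial markers were lower and 10 of 10 choroid plexus and 9 of 10 meningeal markers higher in KO. Of 10 markers of thalamus 9 were higher and 1 lower. Astrocyte markers were 3 higher and 7 lower, and oligodendrocyte markers 2 higher and 8 lower. None of these markers passed in edgeR, and their part was not tested. The summed meningeal markers ran from 259 to 907 CPM in WT and from 374 to 1369 CPM in KO.

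The authors' deposited table of KO against WT listed no member at an adjusted p under 0.05, where 28 of the 15093 genes with an adjusted p passed. The authors' deposited table gave an unadjusted p under 0.05 for 3 members. These were Hnrnpd with a log2 ratio of 0.19 and p = 0.0106, Srsf6 with 0.19 and p = 0.0144, and Hnrnpu with 0.14 and p = 0.0492 in the authors' deposited table, for which the submitters' processing notes name edgeR. Of the 33 members, 16 were higher in KO in the authors' deposited table. For neither the 3 nor the 16 members was the share over all genes counted in that table.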

How the data were processed

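The members and lists were chosen with earlier results of these data known. The submitters' processing notes name TopHat 1.3.3, edgeR 3.0.6, RSEM 1.2.5 and the build mm10. The protocol in the labels names a stranded poly(A) kit and either paired or single reads, without saying which libraries had which. The authors deposited, per the file headers, an estimated count and a TPM with bounds per RefSeq transcript, and a table with log2 ratios, p-values, adjusted p-values and normalised signal columns (0 columns matched no sample). Reads of near-identical copies were divided by estimation, so single members with close copies are uncertain.

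Counts were summed per gene and rounded. In R 4.3.3 with edgeR 4.0.16, filterByExpr (minimum count 10) left 14131 genes and 18021 transcripts, libraries were scaled by TMM (factors 0.979 to 1.021), and a robust quasi-likelihood model of 4 group means was fitted to all 12 libraries. Benjamini-Hochberg adjustment ran over all features, with 0.05 as threshold. The SE is the change divided by the root of F. Ratios of noncoding to coding counts (0.5 added; at least 10 of each in 3 libraries) were tested in limma 3.58.1 over 199 genes. DESeq2 1.42.0, no filter, added counts, left-out libraries, a replicate block, a choroid plexus covariate and narrower sets of libraries were the alternatives. The scripts were tested on simulated data. Named are the 12 members with the smallest p in KO against WT, the 5 smallest in each other gene contrast, the 5 most abundant of each family, and members with both kinds of transcript; others were singled out after their values were seen. Exon sequences and frames come from GENCODE M21. Precision is set by the 12 libraries and by totals of 4435606 to 10911046 counts.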

Additional observations from a re-analysis of the deposited data

Results flagged for a closer look

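Of 72 sets of 6 libraries of a genotype that were examined for a library far from the rest, 4 stood out, and chance gives about 1 in 20. Hnrnpd was highest in WT CT10 replicate 1, at 131 CPM, with the next WT library at 118 CPM and the lowest at 114 CPM. KO CT22 replicate 1 stood above the other KO libraries for Hnrnph1, at 179.6 CPM against 166 CPM in the next, and for Hnrnpr, at 85.1 CPM against 74.8 CPM. Srsf7 was lowest in KO CT10 replicate 2, at 67.7 CPM, with the next KO library at 77.6 CPM.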

How the results depend on the processing

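No member gene was called in any of the 6 gene contrasts under any alternative run. The members named by p were followed only in the contrasts they were named for, and there their log2 changes kept their sign throughout. So did the KO changes of the 3 transcripts followed after their values were seen. Members named only for their abundance, and the other contrasts of a named member, were not followed for sign. With DESeq2 the number of member transcripts called went from 0 to 1 over both CT labels (NM_007516, 0.44) and from 0 to 1 at CT22 (NM_016805, 0.23). NM_016805 is the only transcript of Hnrnpu, so its counts are those of the gene, and only the features tested beside it differ. DESeq2 did not call the gene at CT22, where it called 0.371% of all genes and 1.42% of all transcripts. The cause of the calls was not tested further. The labels do not say whether equal replicate numbers pair the libraries. Of 18 same-numbered pairs 4 had r above 0.1 (from -0.24 to 0.33), and pairs of other numbers ran from -0.30 to 0.29. With so few libraries a group, these values cannot settle whether equal numbers shared a batch. With the replicate block 0 members were called, as without it. The ratios that changed sign were near 0. For Srsf9 between the CT labels the log2 change of 0.03 ranged from -0.063 to 0.12 with 1 library left out (below 0 when replicate 1 of WT or 3 of KO was dropped at CT10, or replicate 3 of WT or 1 or 2 of KO at CT22), and was -0.055 without the KO libraries that clock genes placed with the other label. At CT22 the KO change of Srsf3 (-0.03) ranged from -0.15 to 0.073 (above 0 when replicate 2 of WT or 3 of KO was dropped) and that of Srsf7 (-0.01) from -0.15 to 0.16 with 1 library left out (above 0 when replicate 1 of WT or 3 of KO was dropped); Srsf7 was at 0.0095 with the choroid plexus covariate. With the top library of each group by choroid plexus markers left out, a choice made after seeing the data, Srsf3 was at 0.044 and Srsf7 at 0.17 at CT22, and Srsf3 between the CT labels was at 0.032, against -0.10. With 3 libraries a group and 8 residual degrees of freedom, small changes were not detectable.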
